A study of Homo sapiens with 8 samples.

Results

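The genes described here are 10 core components of transforming growth factor beta (TGF-beta) and activin signalling, out of 54174 gene symbols in the deposited table: the antagonists FST and FSTL3, the ligand genes INHBA, TGFB1 and TGFB2, the receptors TGFBR1 and TGFBR2, the signal transducer SMAD3 and the feedback inhibitors SMAD7 and PMEPA1. They were taken as a list of named genes, and the list was drawn up with results of the knockout comparison known. FST and PMEPA1 were on it because of the size of their differences in that comparison. The knockout-against-control values of all 10 genes are therefore a description, and no p-value is given for them.

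The cells were 143B, an established human osteosarcoma line, transfected for 48 h with a plasmid. The control group comprised 4 libraries from cells given the vector plasmid, labelled with the genotype control. The knockout group comprised 4 libraries from cells given a NELL1KO plasmid, labelled with the genotype NELL1 knockout. NELL1 encodes a secreted matrix-associated protein, and the series title asks how it bears on the matrisome, the genes for extracellular matrix and associated proteins. Both groups received plasmid DNA and transfection reagent, and the labels name neither a selection step nor the share of cells that took up the plasmid. The deposited columns are named VC1 to VC4 for the control and SCC1 to SCC4 for the knockout libraries. The sample descriptions repeat these names without explaining them, and whether the knockout libraries came from clones cannot be told from them. Nothing in the labels says whether the libraries of a group came from separate cultures beyond the word replicate, which the series' design text calls biological, so the p-values below measure the spread between these libraries.

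Ligands of the TGF-beta and activin family bind a pair of type II and type I receptor kinases, which phosphorylate SMAD2 and SMAD3. These enter the nucleus with SMAD4 and change transcription, and the genes they induce include SMAD7 and PMEPA1, which then dampen the pathway. Follistatin, the product of FST, holds activins in an inactive complex outside the cell. In bone and in tumours of bone, TGF-beta is stored in the matrix in a latent form and acts on matrix production, migration and differentiation.

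Values are the deposited numbers on a log2 scale, normalized by the submitters so that every library has the same distribution. The base of the logarithm was inferred from the range of the values, and the unit before it is not given in the sources used here, so levels are compared between libraries for one gene and never between genes. A total shift in RNA output would not be visible, fewer cells of a type and less RNA per cell cannot be told apart, and the sequencing depth is unknown. The targeted gene gave no check of the labels: NELL1 lay between -6.97 and -4.53 in the 4 control libraries and between -6.96 and -4.82 in the 3 knockout libraries with a value. Knockout libraries 1 and 2 closely resembled each other, with an SD of the difference across genes of 0.12, and so did knockout libraries 3 and 4, with 0.13. Between those sets the SD was 0.46 to 0.50, more than between any knockout and any control library (0.36 to 0.45). For this reason the differences within replicates 1-2 and within replicates 3-4 are given beside those over all libraries. Among markers of the labelled cells, VIM (vimentin, a mesenchymal filament protein) stood at 10.2 to 10.9. SPP1 lay at 3.08 to 4.70 and SPARC at 5.23 to 6.15. RUNX2, ALPL and COL1A1 had a value in all 8 libraries, BGLAP in 3 and COL1A2 in 4. The osteoblast genes SP7 and IBSP were blank in every library. Of the epithelial genes, KRT8 (6.52 to 7.10), KRT18 (8.75 to 9.13) and EPCAM (1.83 to 2.76) were measured in every library. KRT19 had a value in 6 libraries, and CDH1 only in 2 control libraries, at -7.49 and -7.40. The blood cell genes PTPRC and CD3E were blank throughout. CD68, a lysosomal protein gene used as a macrophage marker, stood at 5.54 to 5.90, and the endothelial gene PECAM1 was low, at -4.61 to -3.31. VIM fell by 0.43 and KRT8 rose by 0.38 log2 units in the knockout libraries (limma adjusted p = 0.0425 and 0.0176), while SPARC, from the same list as VIM, rose by 0.62 (limma adjusted p = 0.0294). VIM was not called with the replicate block (limma adjusted p = 0.0507) or without the filter (0.0675), and none of the 3 was called with averaged knockout pairs (limma adjusted p = 0.104 to 0.155). Their part in the differences below was not tested.

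Of the 5 genes whose groups did not overlap, FST, PMEPA1 and INHBA had the differences furthest from 0. FST was higher in the knockout libraries by 2.46 ± 0.32 log2 units (SE, n = 4 per group) and FSTL3 by 0.44 ± 0.15. PMEPA1 was lower, with a difference of -1.54 ± 0.21, and INHBA was lower, with a difference of -0.997 ± 0.27. The mean of INHBA lay below the filter described below, so its SE comes from the fit without that filter. TGFBR2, SMAD3 and TGFBR1 had average differences near 0. For TGFBR2 and SMAD3, the sets of knockout libraries lay on either side of all controls.

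**Figure D1:**
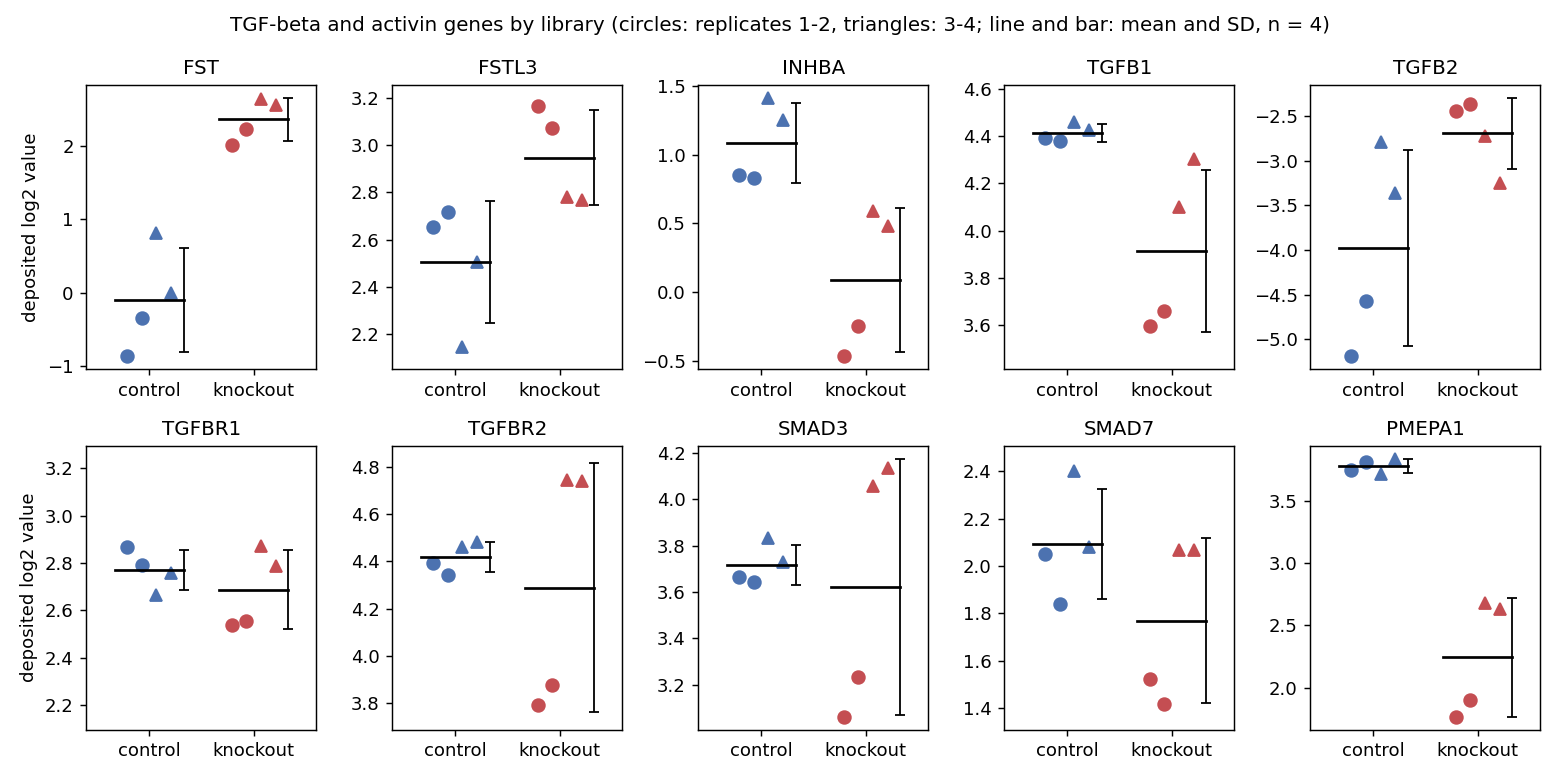
Deposited log2 value of each of the 10 genes (vertical axis, 1 panel per gene with its own scale) in 4 control libraries (blue) and 4 knockout libraries (red). Circles are replicates 1 and 2, triangles are replicates 3 and 4, horizontal lines are means and bars are SD. FST, FSTL3, INHBA, TGFB1 and PMEPA1 show no overlap between groups, and for TGFBR2 and SMAD3 the knockout circles lie below and the triangles above all controls.

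In the limma fit over the whole table, a gene was called changed when its adjusted p-value (Benjamini-Hochberg) was under 0.05. Of all 9016 tested genes 13.1% were called, 7.02% higher and 6.1% lower in the knockout libraries. Of the 10 genes, 8 passed the filter of a mean log2 value of at least 1, and 2 of these 8 were called, FST higher and PMEPA1 lower. Both had been picked in view of this contrast, so nothing is read from that count. INHBA (overall mean 0.59) and TGFB2 (overall mean -3.33) lay below the filter, and neither was called when the filter was removed, where 8.3% of all genes were. The groups did not overlap for 4 of the 8 tested genes (22.9% of all tested genes) or for 5 of all 10 (20.4% of all genes with 8 values), counts that include FST and PMEPA1 and from which nothing is read either.

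How many of the 8 were called differed between fits that treat or choose the libraries differently. With a batch term for replicates 1-2 against 3-4, FST, FSTL3, TGFB1, SMAD7 and PMEPA1 were called, 5 of 8 against 25.2% of all tested genes. In replicates 1-2 alone all 8 were called, against 59.7% of all tested genes, and in replicates 3-4 alone 5 were, against 33.1%. In the fits of a single set, the spread comes from a control pair and a knockout pair. The SD of the difference was 0.12 and 0.13 within the knockout pairs, and 0.10 and 0.19 within the control pairs. Control library 4 lay closer to control libraries 1 and 2 (0.15 and 0.13) than to control library 3. No label calls the sets a batch. FST, FSTL3 and PMEPA1 were called in the same direction in both sets, while TGFBR2 and SMAD3 were called lower in the first set and higher in the second. The genes were listed with results of this contrast known, so nothing is read from these counts or calls.

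FST lies on chr5:53480629-53487134 and PMEPA1 on chr20:57648396-57711472 (RefSeq, GRCh38.p14; the submitters' processing notes name GRCh38). The stretches before their annotated starts are shown because these genes had the most positive and the most negative difference of the 10, and for PMEPA1, which has several annotated starts, the window holding a SMAD-type element was chosen. Each is 250 bases long and is written 5′ to 3′ on the gene's strand, FST at chr5:53480379-53480628 (plus strand) and PMEPA1 at chr20:57710578-57710827 (minus strand). Capitals mark an exact match, on either strand, to the SMAD-type element CAGACA or to the AP-1 site TGACTCA.
FST: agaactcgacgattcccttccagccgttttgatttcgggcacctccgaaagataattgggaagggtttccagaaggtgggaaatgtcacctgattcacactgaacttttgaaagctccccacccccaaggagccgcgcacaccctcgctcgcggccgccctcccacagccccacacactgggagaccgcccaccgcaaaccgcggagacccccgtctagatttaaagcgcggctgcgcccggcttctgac
PMEPA1: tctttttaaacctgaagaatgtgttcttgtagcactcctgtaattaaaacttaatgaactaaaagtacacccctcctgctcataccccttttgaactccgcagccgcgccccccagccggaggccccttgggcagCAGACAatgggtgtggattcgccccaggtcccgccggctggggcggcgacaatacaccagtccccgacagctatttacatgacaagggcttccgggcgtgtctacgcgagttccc

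A match in each of 4 other genes is shown as a 30-base stretch, on the gene's strand. INHBA and TGFB2 are shown with the SMAD-type element, as PMEPA1 is, and TGFBR2 and SMAD3 with the AP-1 site. Counted from the annotated start, the INHBA match lies after it, at 27 to 32, and the PMEPA1 match before it, at -115 to -110. The matches shown lie at -53 to -48 in TGFB2, -6 to 0 in TGFBR2 and -56 to -50 in SMAD3. The stretches are INHBA at chr7:41703046-41703075 (minus strand), TGFB2 at chr1:218345271-218345300, TGFBR2 at chr3:30606583-30606612 and SMAD3 at chr15:67125674-67125703 (all plus strand).
INHBA: tgaagaggagctCAGACAgctcttaccaca
TGFB2: ctttgttgaaggCAGACAcgtggttcagag
TGFBR2: gttgaagttgagTGAGTCActcgcgcgcac
SMAD3: aactgactcctcTGAGTCAtgcccagggga
The 10 genes have 27 RefSeq promoter windows of 300 bases, some of which overlap. CAGACA or its reverse complement TGTCTG was found in 6 of the 27, against 16.9% of all 35116 windows. TGACTCA or its reverse complement TGAGTCA was found in 2, against 4.95% of all windows. The SMAD box palindrome GTCTAGAC was found in none of the 27, and in 0.202% of all windows. The CAGACA matches in 2 windows of TGFBR1 and in another window of SMAD3 are not shown. No match overlapped a match of another motif in these windows. A match is a description of the letters only, and a window without one says nothing about which factors act there.

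The antagonists stood higher in every knockout library. FST, whose product follistatin binds and neutralises activins, had log2 values of -0.86, -0.34, 0.81 and -0.0033 in control libraries 1 to 4 and 2.01, 2.22, 2.64 and 2.56 in knockout libraries 1 to 4. The controls spread over more than a log2 unit, with library 3 on top, but the lowest knockout value lay above the highest control. The group means were -0.10 ± 0.70 and 2.36 ± 0.29 (SD, n = 4 each). Within replicates 1-2 the difference was 2.72, and within replicates 3-4 it was 2.19. The order of the sets was thus the same in both groups, with replicates 3 and 4 above replicates 1 and 2, and the difference held its direction in all 4 same-numbered pairs (1.82 to 2.87). With each close pair of knockout libraries averaged to 1 library, the difference of 2.46 had an SE of 0.42.

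FSTL3 encodes a follistatin-like secreted protein that also binds activins. Its values were 2.66, 2.72, 2.14 and 2.51 in the controls and 3.16, 3.07, 2.78 and 2.77 in the knockouts. The groups did not overlap, although knockout library 4 lay just above control library 2. The difference was nearly equal in both sets, 0.43 in replicates 1-2 and 0.45 in replicates 3-4. FSTL3 was not called over all libraries, and it was called with the replicate number as a block (difference 0.44 ± 0.09, SE), where 10.2% of all tested genes were called. With averaged knockout pairs it was not called (0.44 ± 0.18, SE), as against 1.2% of all tested genes that were.

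The ligand genes did not share a direction. INHBA encodes the beta A subunit, which pairs with itself to form activin A. Its log2 values were 0.85, 0.83, 1.41 and 1.25 in the controls and -0.46, -0.25, 0.59 and 0.48 in the knockouts. All knockout values lay below all controls, and in both groups libraries 3 and 4 lay above libraries 1 and 2. The difference was -1.20 in replicates 1-2 and -0.80 in replicates 3-4. RefSeq places an antisense gene, INHBA-AS1, over the INHBA locus, and whether reads were counted by strand is not given in the sources used here.

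TGFB1, the gene for the ligand TGF-beta 1, was tightly grouped in the controls at 4.39, 4.38, 4.46 and 4.42. The knockout values of 3.60, 3.66, 4.10 and 4.30 lay below all of these, and they spread widely. The difference over all libraries was -0.50 ± 0.15 (SE). It amounted to -0.76 in replicates 1-2 and -0.24 in replicates 3-4. The gene was not called over all libraries without a batch term. It was called with that term, where 25.2% of all tested genes were, and in replicates 1-2 alone, where 59.7% were. Leaving out 1 library at a time gave differences of -0.63 to -0.39. Among these fits TGFB1 was called only without knockout library 4, the knockout library nearest the controls, where 910 of the 9016 tested genes were called. Nothing is read from any of these calls.

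TGFB2, the gene for TGF-beta 2, had negative log2 values in every library. Its control values were -5.19, -4.57, -2.79 and -3.36, so control libraries 3 and 4 stood far above libraries 1 and 2. The knockout values were -2.44, -2.36, -2.72 and -3.24, which overlapped the control range. The difference of 1.28 over all libraries was 2.47 in replicates 1-2 and 0.10 in replicates 3-4. With a pseudocount of 1 on the linear scale it shrank to 0.11.

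The receptor genes and SMAD3 followed the split of the knockout libraries. TGFBR2 encodes the type II receptor kinase that binds TGF-beta first. Its values were 4.39, 4.34, 4.46 and 4.48 in the controls, 3.79 and 3.88 in knockout libraries 1 and 2, and 4.75 and 4.74 in knockout libraries 3 and 4. The controls agreed to within a small fraction of a log2 unit, and the knockout sets lay on either side of them, with differences of -0.53 and 0.27.

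SMAD3, the receptor-activated transcription factor of the pathway, showed the same arrangement. It stood at 3.66, 3.64, 3.83 and 3.73 in the controls, at 3.06 and 3.23 in knockout libraries 1 and 2, and at 4.06 and 4.14 in knockout libraries 3 and 4. The differences were -0.51 and 0.32. Such an arrangement, with the knockout sets on opposite sides of all controls, was present in 2 of the 8 tested genes and in 14.9% of all tested genes. The averages over all libraries, -0.13 ± 0.23 for TGFBR2 and -0.10 ± 0.24 for SMAD3 (SE), lay near 0, where no knockout library of either gene was.

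TGFBR1, which encodes the type I receptor kinase, varied least of the 10 genes across the 8 libraries. The controls held 2.87, 2.79, 2.67 and 2.76. Knockout libraries 1 and 2, at 2.54 and 2.55, lay below all controls, knockout library 3, at 2.87, lay at the top of their range, and knockout library 4, at 2.79, lay inside it. The difference over all libraries was -0.08 ± 0.09 (SE), with -0.28 and 0.12 in the sets.

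**Figure D2:**
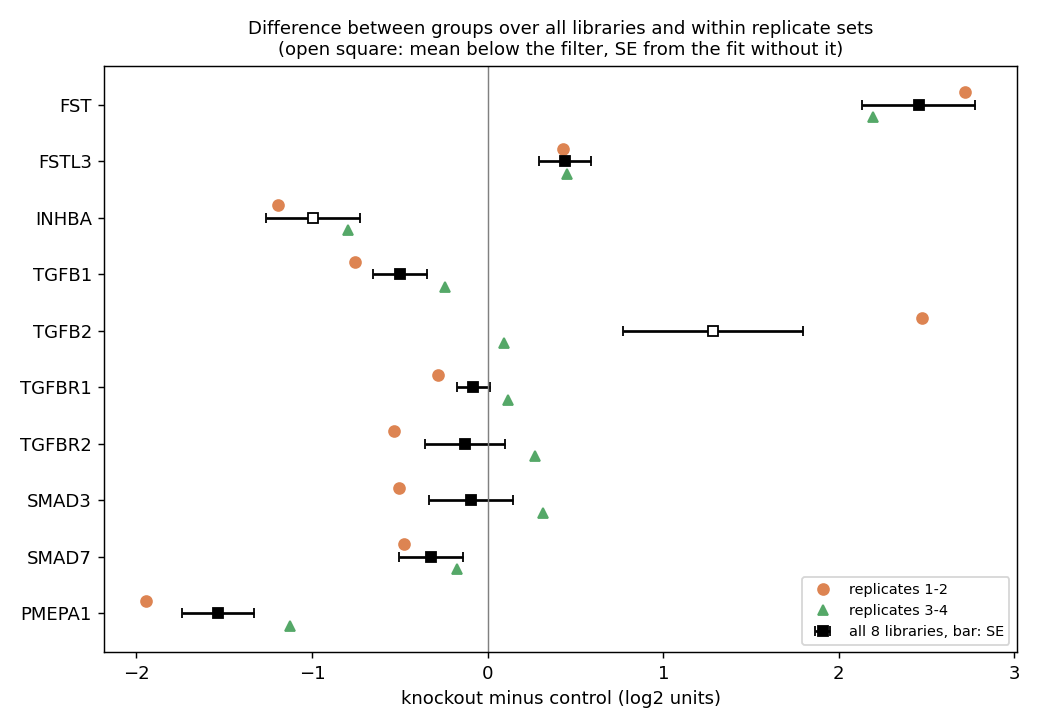
Difference between the knockout and control means in log2 units (horizontal axis) for each of the 10 genes. Black squares with SE bars are all 8 libraries, and circles and triangles are replicates 1-2 and 3-4. Open squares mark INHBA and TGFB2, which lay below the filter and have the SE of the fit without it. FST, FSTL3, INHBA, TGFB1 and PMEPA1 keep their side of 0 in both sets, SMAD7 and TGFB2 do so with differences in replicates 3-4 of -0.17 and 0.10, and TGFBR1, TGFBR2 and SMAD3 change side.

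Of the feedback inhibitors, PMEPA1 had non-overlapping groups and SMAD7 did not. PMEPA1 encodes a membrane adaptor that sequesters receptor-activated SMADs. Its control values were 3.75, 3.81, 3.71 and 3.84, and its knockout values were 1.77, 1.90, 2.68 and 2.63. The controls were nearly identical, and every knockout library lay more than a log2 unit below the lowest of them. The means were 3.78 ± 0.06 and 2.24 ± 0.48 (SD, n = 4 each), and the larger spread in the knockouts came from the 2 sets, with differences of -1.95 and -1.12. With averaged knockout pairs the difference of -1.54 had an SE of 0.21. RefSeq places the long non-coding gene NKILA over the PMEPA1 locus, and that gene has no value in the table used here.

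SMAD7, the inhibitory SMAD that blocks the activated type I receptor, stood at 2.05, 1.84, 2.40 and 2.08 in the controls. The knockout values were 1.52, 1.42, 2.07 and 2.07, so libraries 1 and 2 lay below all controls while libraries 3 and 4 lay inside the control range. The difference was -0.32 ± 0.18 (SE), with -0.48 in replicates 1-2 and -0.17 in replicates 3-4. It was lower in the knockout library in all 4 same-numbered pairs, by -0.53 to -0.01. SMAD7 was not called over all libraries without a batch term, and it was called with that term, where 25.2% of all tested genes were.

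The pathway around these genes was described with a separate list of 85 ligands, latency proteins, receptors, SMAD partners, regulators and target genes. Of these, 54 were tested and 13 were called, 4 higher and 9 lower, which is 24.1% against 13.1% of all tested genes. The list was chosen with earlier results of these data known, so nothing is read from this share or from those of its parts. The median difference of the 54 was -0.11, beside 0.01 over all tested genes. With the replicate block 12 were called, beside 10.2% of all tested genes, and with averaged knockout pairs 2 were, JUNB and CDKN1A, beside 1.2% of all tested genes. Leaving out control library 1, 2 or 4 left 7 called each time.

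Among the other ligands, INHBB, the gene for the activin beta B subunit, had a difference of the opposite sign to that of INHBA. It lay below the filter, with control values of -1.08, -1.40, -0.41 and -0.94 and knockout values of 0.41, 0.42, 0.47 and 0.41. The knockout libraries were almost identical and above every control. In the fit without the filter, INHBB rose by 1.39 ± 0.19 log2 units (SE; limma adjusted p = 0.0096). TGFB3, for TGF-beta 3, had a difference of 1.17 that was not called in that fit (limma adjusted p = 0.118). With a pseudocount of 1 on the linear scale the differences shrank to 0.62 for INHBB and 0.14 for TGFB3. The 1 other ligand tested, INHBE, was not called.

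Of the 7 tested genes for latency and activation, 1 was called (14.3%, beside 13.1% of all tested genes). ITGAV, the integrin alpha V chain that takes part in releasing TGF-beta from its latent complex, fell by 0.65 ± 0.12 (SE; limma adjusted p = 0.0113). Its fall was 0.89 in size in replicates 1-2 and 0.41 in replicates 3-4. The differences of the other 6 ranged from -0.70 to 0.11, and 4 of them (LTBP1, LTBP4, THBS1 and FURIN) had the knockout sets on opposite sides of all controls, an arrangement found in 14.9% of all tested genes.

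None of the 5 tested receptors and co-receptors and none of the 6 tested SMADs and SMAD partners was called, beside 13.1% of all tested genes. At that share groups this small can hold no called gene, so nothing is read from this. Over all libraries the receptor differences lay between -0.09 and 0.01, and the activin receptor genes ACVR1B, ACVR2A and ACVR2B were among them. Within the sets they were wider: ENG, a co-receptor, differed by -0.36 in replicates 1-2 and 0.30 in replicates 3-4, with the sets on opposite sides of all controls, and ACVR1B by -0.17 and 0.15. The differences of the SMADs and partners lay between -0.25 and 0.46, with SMAD2 and SMAD4 among them. BAMBI, a decoy receptor, and SMAD6, another inhibitory SMAD, lay below the filter with differences of 0.67 and 0.69 and were not called without it (limma adjusted p = 0.113 and 0.221). The 2 tested deubiquitinases were not called, and nothing is read from so few genes either.

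Of the 9 tested negative regulators 2 were called (22.2%, beside 13.1% of all tested genes), a pair of related repressors that moved apart. TGIF1, a homeodomain co-repressor of SMADs, fell by 0.83 ± 0.16, and its relative TGIF2 rose by 0.32 ± 0.06 (SE; limma adjusted p = 0.0137 and 0.0165). TGIF2 was not called when control library 1, 2 or 4 was left out (limma adjusted p = 0.059 to 0.0651). With averaged knockout pairs neither was called (limma adjusted p = 0.063 for TGIF1 and 0.112 for TGIF2). TGIF1 was 3.45, 3.54, 3.55 and 3.44 in the controls and 2.89, 3.04, 2.43 and 2.31 in the knockouts. The knockout values lay below all controls in both sets, by more in replicates 3-4 (-1.13) than in replicates 1-2 (-0.53), the reverse order of PMEPA1. The other 7, the SMURF ubiquitin ligases and SKIL among them, had differences of -0.27 to 0.29 and were not called.

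Genes that TGF-beta is known to regulate in other cells changed in both directions. Of 24 tested, 10 were called, 7 lower and 3 higher (41.7%, beside 13.1% of all tested genes, 6.1% lower and 7.02% higher). As for the whole list, which was chosen with earlier results known, nothing is read from this share. CDKN1A, the cell cycle inhibitor p21, fell by 0.93 ± 0.07 and JUNB, an AP-1 subunit, fell by 0.71 ± 0.07 (SE; limma adjusted p = 7.9e-04 and 0.00117). FN1 (fibronectin), IGFBP3, BHLHE40, TSC22D1 and SPHK1 also fell, by 1.26, 0.92, 0.86, 0.43 and 0.30. Of these, TSC22D1 and SPHK1 were not called with the replicate block (limma adjusted p = 0.0516 and 0.0534), and IGFBP3 was not called in 9 of 19 other settings, among them the fit without the filter (limma adjusted p = 0.0694). FN1, BHLHE40, IGFBP3, TSC22D1 and SPHK1 were not called when control library 1, 2 or 4 was left out. FN1, IGFBP3 and TSC22D1 were also not called without knockout library 2.

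The 3 target genes that rose encode an actin-associated protein, a matricellular protein and a tropomyosin. TAGLN rose by 2.59 ± 0.45, CCN2 by 0.81 ± 0.14 and TPM1 by 0.53 ± 0.08 (SE; limma adjusted p = 0.01, 0.00913 and 0.00717). The TAGLN difference was 3.84 in replicates 1-2 and 1.34 in replicates 3-4, whereas that of TPM1 was 0.53 and 0.54. With averaged knockout pairs none of the 3 was called (limma adjusted p = 0.0642 to 0.0772). Many of these genes respond to other signals too, and each lies on other lists in common use.

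**Figure D3:**
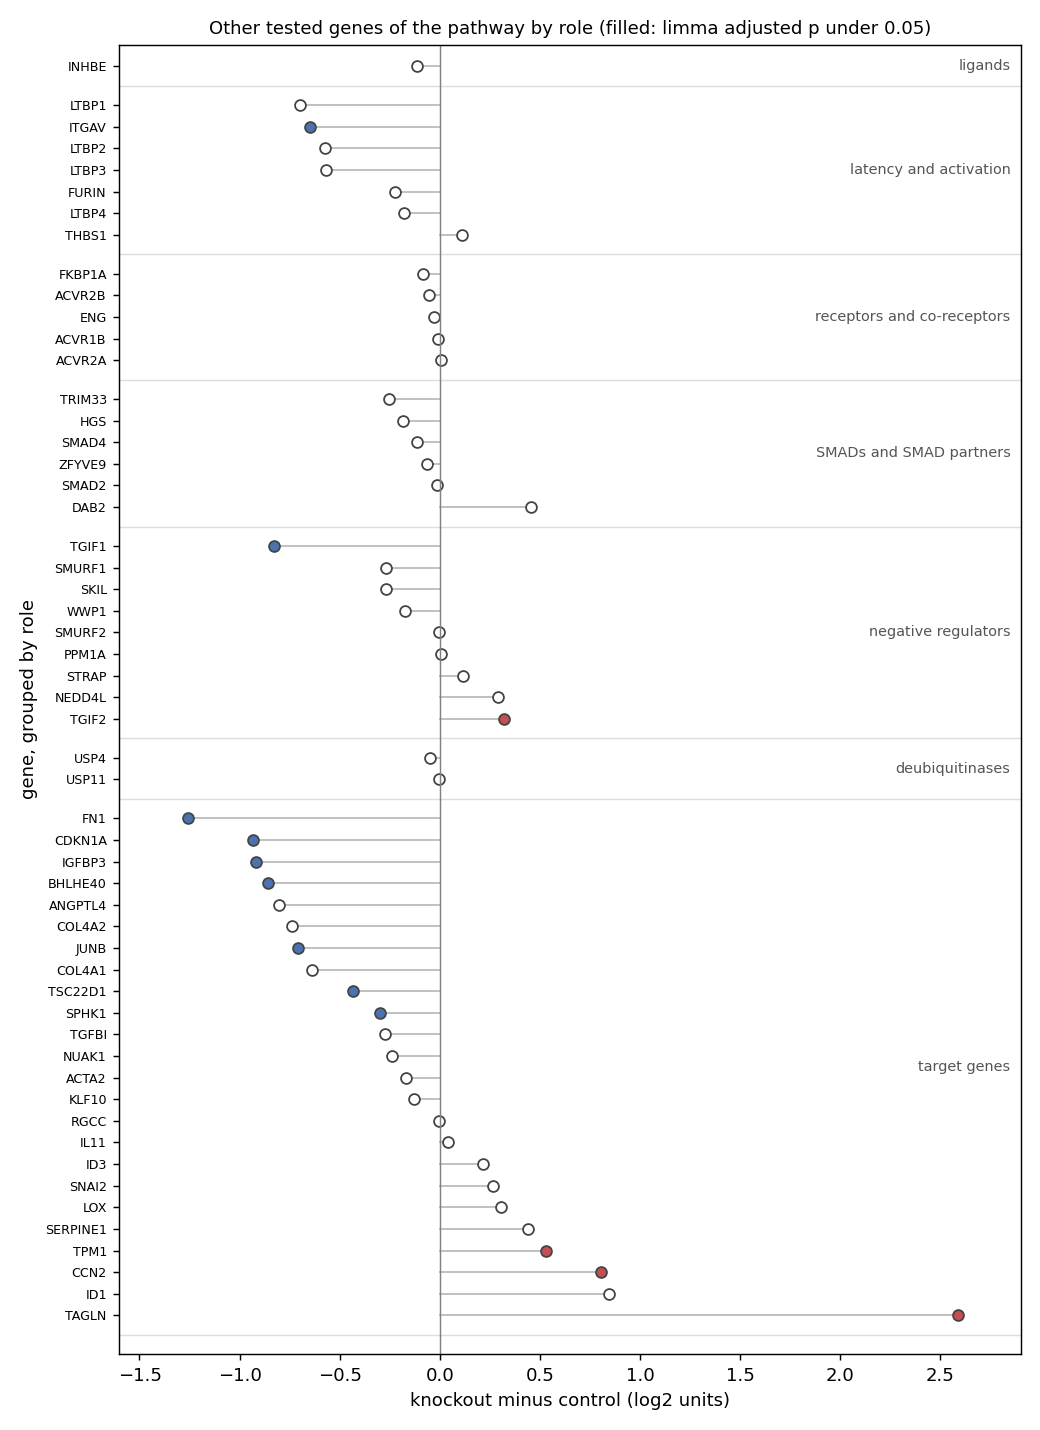
Difference between the knockout and control means in log2 units (horizontal axis) for the 54 tested genes of the wider pathway list, 1 gene per row, grouped by role. Filled circles passed a limma adjusted p of 0.05, red for higher and blue for lower in the knockout libraries. The called genes are mostly target genes, 7 lower and 3 higher, and the receptor rows, averaged over all libraries, stay between -0.09 and 0.01.

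**Figure D4:**
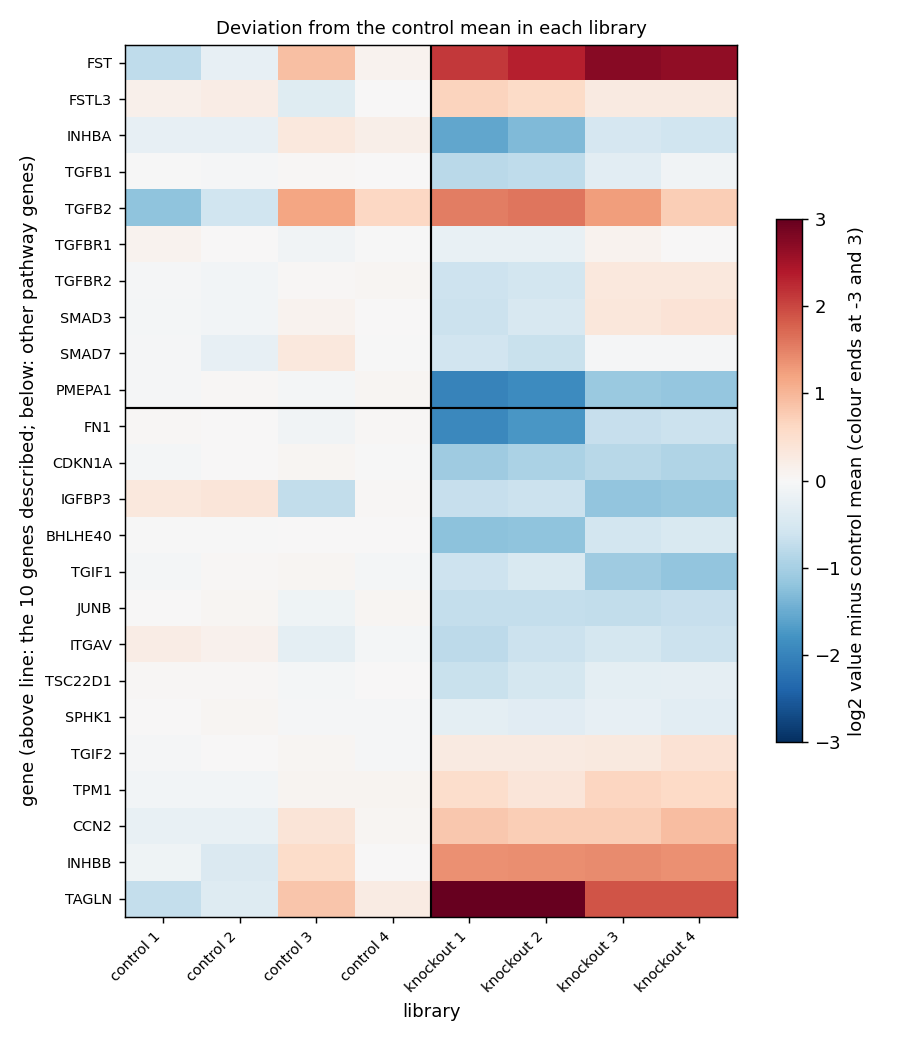
Deposited log2 value minus the control mean of the gene, in each of the 8 libraries (columns), for the 10 genes (above the line) and for INHBB and the 13 called genes of the wider list (below it). Colours end at -3 and 3, and the values run from -2.01 to 3.4. FST and INHBB are above the control mean in all 4 knockout libraries, PMEPA1, CDKN1A and JUNB are below it in all 4, and TGFBR2 and SMAD3 change colour between knockout libraries 2 and 3.

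The genes whose pattern over the 8 libraries was most like that of FST were found by Pearson correlation with all tested genes, as a description without a test, since the libraries fall into groups. They were ACAT2 (r = 0.996), which encodes a cytosolic acetyl-CoA acetyltransferase, SCLY (0.995), ADA (0.994), which encodes adenosine deaminase, UNG (0.994), which encodes uracil-DNA glycosylase, and LOC728392 (0.993). The most opposite patterns were those of EDEM3 (-0.992), SDC4 (-0.988) and ICAM1 (-0.986). For PMEPA1 the most similar genes were PLEK2 (0.997), CEPT1 (0.995), TMCC3 (0.995), PIK3CD (0.995) and TRIOBP (0.994), and the most opposite were TUBA4A (-0.998), AJUBA (-0.992) and PRKAG2 (-0.991). Like FST, ACAT2 and SCLY had their lowest values in control libraries 1 and 2. No other gene of the 10 was among these.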

How the data were processed

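RNA from 8 libraries of a cell line, 4 control and 4 knockout, was measured by RNA sequencing, with a stranded total-RNA kit per the labels' protocols. The submitters' processing notes name bcl2fastq, Partek 7.0 and GRCh38, without their roles, and the aligner, counting rule and annotation are not given in the sources used here. The deposited log2 values have the same mean (1.07), median (1.77), lowest (-10.5) and highest value (12.1) in every library, as after quantile normalization. Blank cells were treated as missing, and depth is unknown.

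Knockout minus control was estimated by limma 3.58.1 (R 4.3.3, eBayes without a trend) on the 9016 genes with 8 values and a mean of at least 1, with Benjamini-Hochberg adjustment over all of them. The fit was tested on simulated data with independent noise in every library. Those data held no close pairs of knockout libraries, so the test says nothing about the fit where such pairs exist. Replicate numbers come from the titles. As a check of pairing, each library's deviations from its group mean were correlated over genes: r was 0.195 to 0.289 for the 4 same-numbered pairs, so a fit with a replicate block was run beside the other. Libraries of different number within replicates 1-2 or within 3-4 correlated to a like extent (0.113 to 0.315). Alternatives concerned the filter, scaling, pseudocount, variance model, block, replicate sets and leaving out libraries.

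All 10 genes, the called genes of the wider list, uncalled ones where a role had no called gene, and the 5 most and 3 least correlated genes were to be named. The genes and lists were chosen with earlier results of these data known. Promoter windows are RefSeq's (GRCh38.p14), from 250 bases before to 50 after a start, and all 10 genes matched. Protein sequences were not used here.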

Additional observations from a re-analysis of the deposited data

Results flagged for a closer look

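The 10 genes described, the 13 called genes of the wider list, INHBB, TGFB3, BAMBI and SMAD6 were checked for outlying libraries. A library far from the other 3 of its group was sought by the gap to the nearest value, as a share of the group's range. Of 54 groups checked, 1 passed Dixon's critical value, and chance passes about 1 in 20. It was TGIF2 in knockout library 4, which at 3.58 was above the other knockout libraries, with a gap of 0.849 of the range. None of the 10 genes described had such a library in either group.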

How the results depend on the processing

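Against 1183 called genes over all libraries, 13 of the wider list and 2 of the 10 described, the counts differed most between fits that average or choose libraries. Averaged close pairs gave 108 and 2 (wider list), replicates 1-2 alone 5380, 38 and 8, and replicates 3-4 alone 2987, 21 and 5. A batch term for replicates 1-2 against 3-4 gave 2274 genes and 5 of the 10, and a mean of at least 3 gave 729 genes and 1 of the 10, since FST lies below it. The replicate block gave 924, 12 and 3. Leaving out 1 library gave 391 to 1353 genes, 7 to 15 of the wider list and 2 to 3 of the 10, with the lowest counts of the list, 7, without control library 1, 2 or 4, and the lowest counts of all genes, 444, 431 and 391, in the same fits. Without knockout library 3 the count was 716. Of the 13 called genes of the wider list, JUNB and CDKN1A kept theirs in all settings, and none of the 13 changed direction. Unknown depth means that no counting error can be given for low genes such as TGFB2.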
